A study of Mus musculus with 10 samples.

Results

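The let-7 and miR-98 guide strands are the 5p strands of one microRNA (miRNA) family. They were picked by name from the mature miRNA table: mmu-let-7a-5p, mmu-let-7b-5p, mmu-let-7c-5p, mmu-let-7d-5p, mmu-let-7e-5p, mmu-let-7f-5p, mmu-let-7g-5p, mmu-let-7i-5p and mmu-miR-98-5p, written below without the species prefix. They are 9 of 1908 mature miRNAs listed. The study took hearts of C57BL/6 mice at 3 embryonic stages, named by day as E10.5, E14.5 and E17.5, and from newborns and adults. The labels give no age for the last 2 stages, and no genotype or treatment. Each stage has 1 small RNA library and 1 long RNA library, so no difference could be set against a spread between animals and no test was made. The labels call the cells cardiomyocytes and the source heart tissue. Cardiomyocyte miRNAs (6 of 6 detected, led by miR-1a-3p) held 5.22% of the E10.5 library and 24.3% of the adult one, and those of fibroblasts and smooth muscle between 6.75% in the adult and 12.8% at E10.5, so the libraries are described as heart tissue. The liver miRNA miR-122-5p reached at most 0.0894% of a library, and 3 epithelial miRNAs held 0.0992% of the E10.5 library and 0.00107% of the adult one, where miR-205-5p was at 0. The part of these shifts in the let-7 values was not tested. In such tissue, fewer cells of a type and less RNA per cell cannot be told apart.

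A let-7 miRNA is cut from a hairpin precursor by the enzymes Drosha and Dicer. The 5p strand is usually kept as the guide in an Argonaute protein, and the 3p strand is mostly discarded. The guide finds messenger RNAs through its seed, bases 2 to 8. In mammals the RNA-binding proteins LIN28A and LIN28B hold back let-7 precursors in early, undifferentiated cells, and mature let-7 accumulates as tissues differentiate. Well-known targets include Hmga2 and the Igf2bp genes, which promote growth.

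The mature sequences show why the 9 are treated together and how little separates them. They are printed 5′ to 3′ from RefSeq (GRCm38.p6), with the seed in capitals, and all 9 were found there.
let-7a-5p: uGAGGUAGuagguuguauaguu
let-7b-5p: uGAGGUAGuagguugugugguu
let-7c-5p: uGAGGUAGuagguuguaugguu
let-7d-5p: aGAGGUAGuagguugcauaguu
let-7e-5p: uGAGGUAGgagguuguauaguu
let-7f-5p: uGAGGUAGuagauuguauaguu
let-7g-5p: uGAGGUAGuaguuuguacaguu
let-7i-5p: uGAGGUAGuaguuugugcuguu
miR-98-5p: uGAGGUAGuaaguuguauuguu
All 9 are 22 bases long and carry the seed GAGGUAG, which 11 of the 1603 table rows with a RefSeq sequence hold, and 14 of the 22 positions are the same in every one. Counted from the 5′ end, let-7c-5p differs from let-7a-5p by A19G, let-7e-5p by U9G and let-7f-5p by G12A. From let-7c-5p, let-7b-5p differs at 1 position, and against let-7a-5p it carries A17G and A19G. These are the 4 pairs, of 36, that differ at 1 position. let-7i-5p is the most distant from let-7a-5p, with G12U, A17G, U18C and A19U. The sources used here do not say how the authors assigned reads that match several members, so the split between let-7a, b, c, e and f is less certain than their sum.

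The members come from 12 hairpins (RefSeq positions, GRCm38.p6). On chromosome 13 lie let-7d (chr13:48536012-48536114), let-7f-1 (chr13:48537829-48537917) and let-7a-1 (chr13:48538179-48538272), within 10 kb of each other on the minus strand. let-7c-2 (chr15:85706603-85706697) and let-7b (chr15:85707319-85707403) lie together inside the span of the lncRNA gene Lncppara. On the X chromosome let-7f-2 (chrX:151912346-151912428) and the miR-98 hairpin beside it lie inside the span of Huwe1, which encodes a ubiquitin ligase. Genes of miR-99, miR-100 or miR-125 neighbour let-7a-2 (chr9:41536716-41536811), let-7c-1 (chr16:77599657-77599750) and let-7e (chr17:17830352-17830444), the last inside the span of Spaca6. let-7g (chr9:106178840-106178927) lies inside the span of Wdr82. let-7i (chr10:122985640-122985724) on the minus strand lies inside none of the genes searched and has no listed miRNA within 100 kb. Genes whose symbols begin with Mir were left out of the search for spanning genes, for all hairpins. Hairpins whose strand is not given here lie on the plus strand. The annotation used here gives gene spans and not exons, so exonic or intronic position is not stated. let-7a-5p, let-7c-5p and let-7f-5p are each held by 2 hairpins, and each of the other 6 members by 1.

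Levels are given as counts per 1000000 of the library total (CPM), where totals ranged from 10479309 at E10.5 to 12953867 in the adult. With counts this high the exact 95% Poisson interval of a member's CPM is narrow, from 447 to 473 around the lowest value (miR-98-5p at E10.5), and it covers counting error only. Series of 5 values are given in order of age, E10.5 first. Summed over the 9 members, the family held 9.55%, 26.5%, 28.1%, 31.1% and 29.5% of all miRNA counts. The largest difference between neighbouring stages lay between E10.5 and E14.5, where the summed CPM was 2.78-fold higher (2.77 to 2.78, exact Clopper-Pearson 95% interval). From E14.5 on, the log2 difference between neighbouring stages lay between -0.08 and 0.15 in CPM. From the newborn to the adult it was -0.08 in CPM but 1.13 under median-ratio scaling, defined with the members' courses.

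Members followed 3 courses. In the first, let-7a, b, c, d and f were higher in CPM at each of the 4 steps. let-7b-5p had 2011, 11574, 17680, 21434 and 27549 CPM. let-7f-5p had 11965, 43832, 51722, 64124 and 73172 CPM. let-7b-5p thus began among the rarer members and ended 13.7-fold higher, while let-7f-5p, already abundant, ended 6.12-fold higher. let-7d-5p, whose hairpin lies beside let-7f-1, had 1809, 6841, 7762, 8854 and 9386 CPM. let-7c-5p had 20488, 40539, 43015, 55406 and 73291 CPM. let-7a-5p had 18894, 45568, 49599, 57215 and 59179 CPM. In each of the 5 the E10.5 library was the lowest and the adult library the highest. Of the 800 miRNAs with at least 10 counts in some library, 2.75% were higher at every step, against these 5 of 9. Without the newborn library let-7g-5p joined them, making 6, against 4% of the 800. CPM divides by a total in which miR-1a-3p took 8.60% in the newborn and 22.5% in the adult. Scaling each library instead by the median of its ratios to the geometric mean over 750 miRNAs (median-ratio scaling) put 8 of 9 members higher at every step, all but let-7e-5p, against 12.6% of the 800.

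let-7g-5p, let-7i-5p and miR-98-5p were higher at E14.5 than at E10.5 and then levelled off or were lower again in CPM, while under median-ratio scaling they were higher at each step. let-7g-5p had 4734, 11123, 12181, 14276 and 13464 CPM. let-7i-5p had 24299, 93149, 87378, 80014 and 35158 CPM, the most abundant member at each stage except the adult. miR-98-5p had 460, 1519, 1361, 1213 and 622 CPM and was the rarest throughout. let-7i-5p and miR-98-5p lie on different chromosomes and differ in level by more than 50-fold, yet their courses were close. Their ratio stayed between 52.8 at E10.5 and 65.9 in the newborn. As a description over 5 libraries, Pearson's r of their log2(CPM + 1) values was 0.998, the points sharing each library's depth and make-up. Such a value was not particular to this pair: let-7a-5p had 0.999 with let-7d-5p, 0.998 with let-7f-5p and 0.997 with let-7g-5p. let-7b-5p also had 0.998 with let-7f-5p. The remaining pairs ranged from 0.997 (let-7d-5p with let-7g-5p) down to -0.72 for let-7c-5p with let-7e-5p.

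let-7e-5p stood apart from both groups. It had 10869, 11111, 10252, 8394 and 2787 CPM. In CPM it stayed near its first value through E17.5 and was lowest in the adult. Under median-ratio scaling its values were 5263, 8757, 9575, 9185 and 7031, lowest at E10.5, and the log2 difference between E10.5 and the adult was 0.42.

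**Figure D1:**
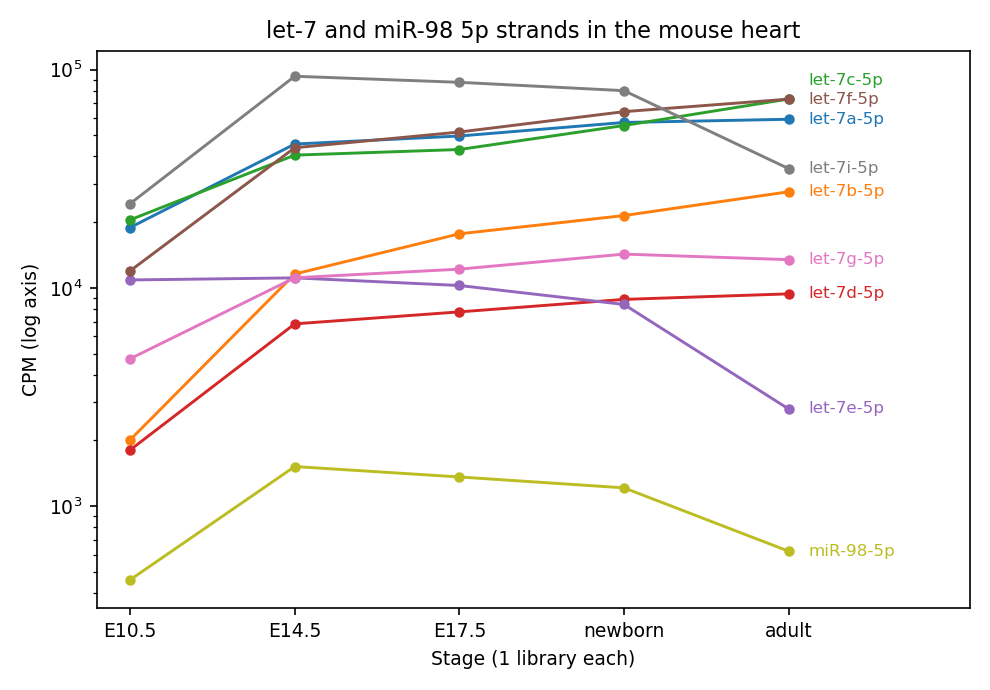
CPM (log axis) of each 5p strand at the 5 stages, 1 library each. Bars are exact 95% Poisson intervals, smaller than the points. let-7b-5p goes from 2011 to 27549 CPM, let-7i-5p peaks at 93149 CPM at E14.5 (under median-ratio scaling it is higher at each step), and let-7e-5p ends at 2787 CPM (median-ratio scaling turns the sign of its difference from E10.5).

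The order of the members changed between the ends of the series. At E10.5 it ran let-7i, c, a, f, e, g, b, d and miR-98, and each neighbouring pair differed by more than counting error. In the adult it ran let-7c, f, a, i, b, g, d, e and miR-98. There let-7c-5p (949403 counts) and let-7f-5p (947855) did not differ beyond counting error, with a ratio of 1.00 (0.999 to 1.00). The same held for let-7g-5p (128212) and let-7e-5p (128073) at E14.5. Among all miRNAs of the adult library let-7c-5p ranked 2, let-7f-5p 3, let-7a-5p 5 and let-7i-5p 8. At E10.5 the highest rank was that of let-7i-5p, at 11. These orders treat a read as 1 count whatever the number of hairpins, a point taken up with the 3p strands.

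Shares within the family do not depend on how libraries are scaled against each other. let-7i-5p made up 25.4% (Wilson 95% interval 25.4 to 25.5), 35.1%, 31.1%, 25.7% and 11.9% of the family. Its share thus peaked at E14.5 and was lowest in the adult. let-7b-5p, by contrast, had 2.11%, 4.36%, 6.29%, 6.89% and 9.35%, higher at each stage. let-7f-5p went from 12.5% at E10.5 to 24.8% in the adult, and let-7d-5p from 1.89% to 3.19%. let-7e-5p had 11.4% (11.3 to 11.4), 4.19%, 3.65%, 2.70% and 0.946% (0.936 to 0.956), lower at each stage. Against let-7b-5p it went from 5.40-fold as abundant at E10.5 to 0.101-fold in the adult. let-7a-5p stayed between 17.2% and 20.1%, and let-7g-5p between 4.19% and 4.96%. let-7c-5p was at 21.4% at E10.5, near 15.3% at E14.5 and E17.5, and at 24.9% in the adult. The near-identical let-7a, b, c, e and f together held 67.2% of the family at E10.5, 57.5% at E14.5 and 80.1% in the adult. Their sum is less exposed to reads misassigned among them. It includes let-7a, c and f, so it still depends on how reads from several hairpins were counted, a point taken up with the 3p strands.

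**Figure D2:**
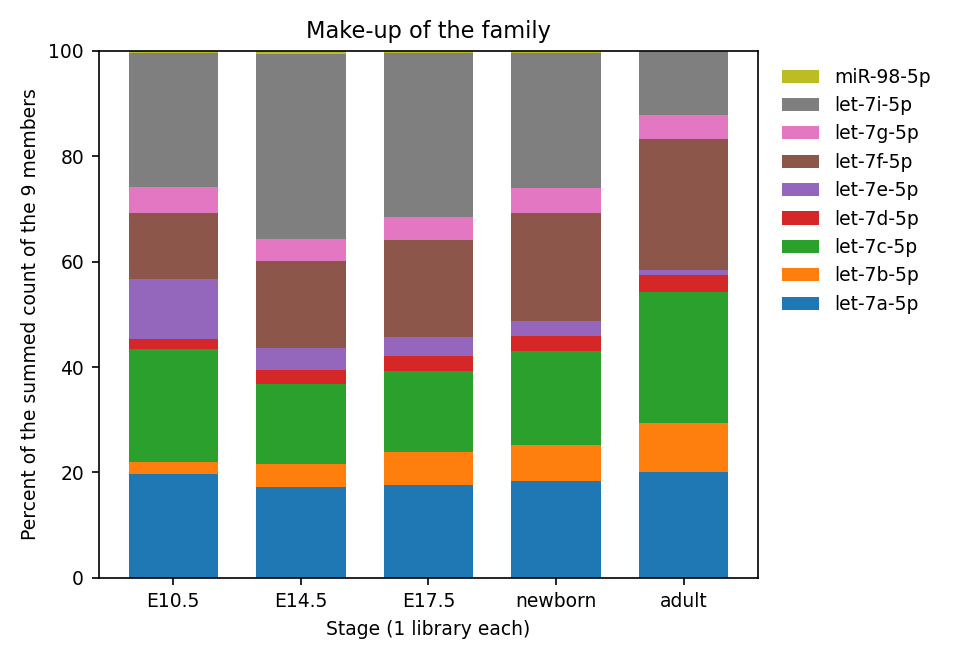
Each member as a percent of the summed count of the 9 members, by stage (1 library each, stacked from let-7a-5p at the bottom). let-7e-5p narrows from 11.4% to 0.946%, let-7b-5p widens from 2.11% to 9.35%, and let-7i-5p is widest at E14.5 (35.1%).

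Neighbours in one cluster kept their ratio to different degrees. let-7f-5p was 6.62-fold as abundant as let-7d-5p at E10.5 and 7.80-fold in the adult, although let-7f-5p also comes from the X chromosome. let-7b-5p and let-7c-5p, whose hairpins let-7b and let-7c-2 adjoin, went from a ratio of 0.0982 at E10.5 to 0.411 at E17.5 and 0.376 in the adult, and let-7c-5p also comes from chromosome 16.

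Differences between stages were taken as log2(CPM + 1), and a member at least 2-fold apart was counted as higher or lower. This rule goes by size alone. Between E10.5 and E14.5, 7 of 9 members were higher and 0 lower, while 2.88% of all 763 miRNAs compared were higher and 27.9% lower. The median of the members was 1.72 and that of all miRNAs -0.64. Median-ratio scaling put 8 members higher and 0 lower, against 7.47% and 5.11% of all. let-7b-5p had the largest difference of this step (2.52), let-7i-5p had 1.94, and let-7e-5p, at 0.03, was nearly level. let-7c-5p, at 0.98, lay just under the 2-fold limit. From E14.5 to E17.5 and from E17.5 to the newborn no member reached the limit in either direction. In all miRNAs 1.03% and 5.05% were higher at these steps, and 5.60% and 9.51% lower. Under median-ratio scaling the members' counts were also 0, against 1.18% and 5.94% higher and 3.24% and 6.24% lower. From E14.5 to E17.5 the largest member difference was that of let-7b-5p (0.61 in CPM, 0.86 under median-ratio scaling). From E17.5 to the newborn it was that of let-7c-5p (0.37 in CPM, 0.59 under median-ratio scaling). The newborn library also had neural miRNAs (miR-9-5p and miR-124-3p) at 13037 CPM in sum, against 405 to 837 CPM at the other stages. Their part in the newborn let-7 values was not tested.

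From the newborn to the adult, 0 of 9 members were higher and 2 lower in CPM, let-7e-5p (-1.59) and let-7i-5p (-1.19), with 6.76% of all 636 miRNAs higher and 43.2% lower. miR-98-5p, at -0.96, lay just inside the limit, and let-7c-5p had the largest positive difference (0.40). Median-ratio scaling moved the median of all miRNAs from -0.85 to -0.18. Under it 6 members were higher and 0 lower (all miRNAs: 23.7% and 29.2%), let-7i-5p was at 0.02, and let-7e-5p, at -0.39, was the single member below 0. Over the whole span from E10.5 to the adult, 6 members were higher and 1 lower in CPM, against 7.97% and 68.2% of 765 miRNAs. With median-ratio scaling the members' counts were 8 and 0, against 25.0% and 33.1%. The distance between members does not hang on this choice: in both scalings let-7b-5p was the highest and let-7e-5p the lowest of the 9, between 5 and 6 log2 units apart.

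**Figure D3:**
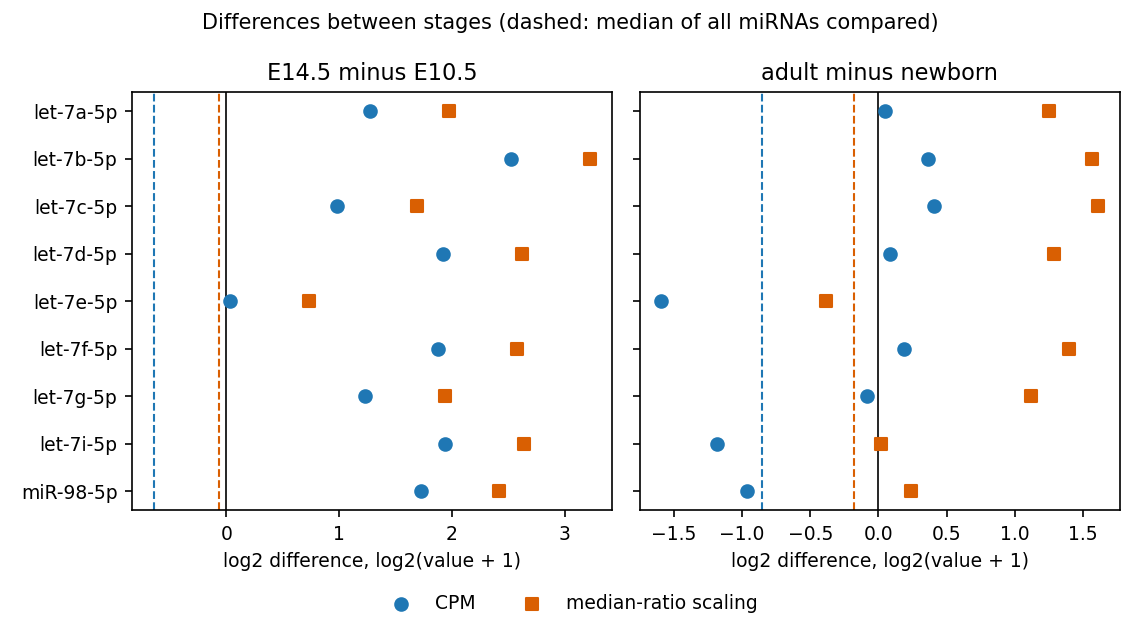
log2 difference of each member, on log2(value + 1), between E10.5 and E14.5 (left) and from the newborn to the adult (right), in CPM (circles) and under median-ratio scaling (squares), with the median of all miRNAs compared as dashed lines. On the left every member lies right of the medians. On the right let-7e-5p lies at -1.59 or -0.39, and let-7i-5p moves from -1.19 to 0.02.

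The 3p strands were compared with their guides inside each library, where scaling cancels. The table lists 12 of them. Over the family, 5p counts were 129, 131, 116, 171 and 172 times the 3p counts, with 2 rows of identical sequence counted once. One hairpin accounted for most of the 3p counts: let-7d-3p gave 63.9% of them at E10.5 and between 90.4% and 93.1% later. With let-7d-3p left out, 5p counts were 357 times the 3p counts at E10.5 and 2139 times in the adult. The counts of let-7d-3p were 4961, 21018, 28912, 21236 and 20362. It made up 20.7% (exact Clopper-Pearson interval 20.2 to 21.3), 21.0%, 22.5%, 15.9% and 14.3% (14.2 to 14.5) of let-7d strands, lower after birth than before. let-7d is also the member whose 5p strand begins with A in place of U (U1A against let-7a-5p). A link between this base and the 3p share was not tested.

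In every other member the 3p strand stayed below 1% of its strands. At E10.5 that share was 0.876% for let-7c, 0.823% for miR-98, 0.647% for let-7e and 0.349% for let-7a. Rarer still were let-7b (0.166%), let-7f (0.0574%), let-7g (0.00806%) and let-7i (0.00393%). For let-7g this rested on 2 to 6 counts per library, so its changes were not detectable at this depth. The share was lower at E14.5 than at E10.5, beyond counting error, for let-7a, b, c, e, f and miR-98. In let-7c it was lower at each later stage too, at 0.138% in the adult. From the newborn to the adult it was higher beyond counting error for let-7e, with 0.230% (0.202 to 0.260) and 0.345% (0.287 to 0.411), and for let-7a, with 0.142% (0.134 to 0.151) and 0.161% (0.152 to 0.170). let-7i-3p had 10, 29, 59, 59 and 38 counts, and its share was highest in the adult, at 0.00834% (0.00590 to 0.0115), with an interval that overlaps that of the newborn. For let-7a and let-7c these shares each include the row of the sequence that they have in common.

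**Figure D4:**
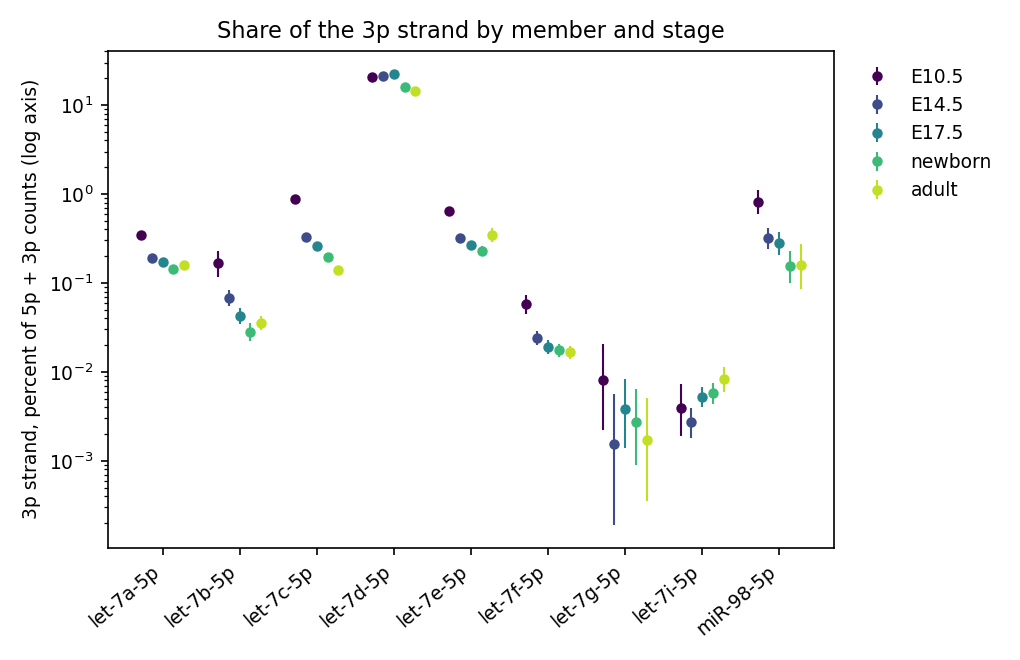
3p counts as a percent of 5p plus 3p counts (log axis) for each member, 1 point per stage and exact Clopper-Pearson 95% intervals. let-7d stands between 14.3% and 22.5%, the other members lie below 1%, and let-7c goes from 0.876% to 0.138%.

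Where a guide has 2 hairpins, their 3p strands can tell them apart only if no other hairpin gives the same 3p sequence. The pair of rows from let-7c carries the clearest difference, but that of let-7c-2 has the sequence of let-7a-1-3p, shown beside it. Capitals mark bases that differ from let-7c-2-3p (RefSeq, GRCm38.p6).
let-7c-1-3p: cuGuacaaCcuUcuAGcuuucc
let-7c-2-3p: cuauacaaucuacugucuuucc
let-7a-1-3p: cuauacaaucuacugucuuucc
let-7c-1-3p, from chromosome 16, had 1208, 529, 357, 355 and 83 counts. let-7c-2-3p had 689, 1003, 1102, 1034 and 1233. The first was lower in the adult by a log2 difference of -3.97 in CPM (-1.73 under median-ratio scaling), while the second was higher (0.53 and 2.88). Their ratio went from 1.75 at E10.5 (1.60 to 1.93) to 0.0673 in the adult (0.0532 to 0.0841). let-7a-1-3p has the same sequence as let-7c-2-3p and nearly the same counts (689, 1005, 1102, 1037 and 1234), within 3 in every library. The sequence thus cannot be placed on chromosome 13 or 15 from these data, and the ratio above is not one between the let-7c hairpins. let-7a-2-3p, the other 3p strand of let-7a, had between 1 and 5 counts.

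Rows of identical sequence bear on how shared reads were treated. Besides let-7a-1-3p and let-7c-2-3p, the table holds miR-199a-3p and miR-199b-3p with 1 sequence, and their summed counts stood at 2.03 to 1, where the reference lists 2 hairpins for the first and 1 for the second. Rows of the miR-465 family with 1 sequence, of at most 25 counts, did not all follow the listed hairpins: miR-465b-3p and miR-465c-3p had equal counts with 2 hairpins and 1. Whether such reads were divided among hairpins or counted at each one cannot be told apart. If they were counted at each, let-7a-5p, let-7c-5p and let-7f-5p would stand 2-fold too high against the other members. With their counts divided by 2, let-7i-5p would make up 34.8% of the family in the E10.5 library and 18.3% in the adult one. let-7c-5p would make up 14.7% and 19.1%. let-7a, b, c, e and f together would then hold 55.2% at E10.5 and 43.8% at E14.5, in place of 67.2% and 57.5%.

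Both strands of let-7e were lower in the adult in CPM. let-7e-3p had 742, 406, 351, 246 and 125 counts. Its log2 difference between E10.5 and the adult was -2.75 in CPM, beside -1.96 for let-7e-5p, and -0.48 under median-ratio scaling, where that of let-7e-5p turned to 0.42. let-7f-1-3p, from chromosome 13, had 32, 63, 76, 85 and 59 counts, and let-7f-2-3p, from the X chromosome, had 40, 59, 51, 58 and 98. Their ratio was 1.47 in the newborn (1.04 to 2.08) and 0.602 in the adult (0.428 to 0.840), on opposite sides of 1. miR-98-3p, beside let-7f-2 on the X chromosome, had 40, 56, 49, 24 and 13 counts, lower in the adult in CPM (-1.27) but not under median-ratio scaling (0.31). let-7b-3p had 35, 91, 97, 77 and 128 counts, and its CPM was 2.96-fold higher in the adult than at E10.5 (2.02 to 4.43), less than the 13.7-fold of its guide. Of the 10 strands of the 3p side with at least 10 counts at either end, 7 lay above 0 with either scaling. let-7c-1-3p and let-7e-3p lay below 0 with either scaling, and miR-98-3p turned. The 7 include let-7a-1-3p and let-7c-2-3p, which share 1 sequence and nearly the same counts. Among the 7 is also let-7f-1-3p, whose CPM ratio of adult to E10.5 was 1.49 (0.954 to 2.37), not beyond counting error. For all 765 miRNAs compared over this span, the median log2 difference lay below 0 with either scaling (CPM -1.59, median-ratio -0.40).

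**Figure D5:**
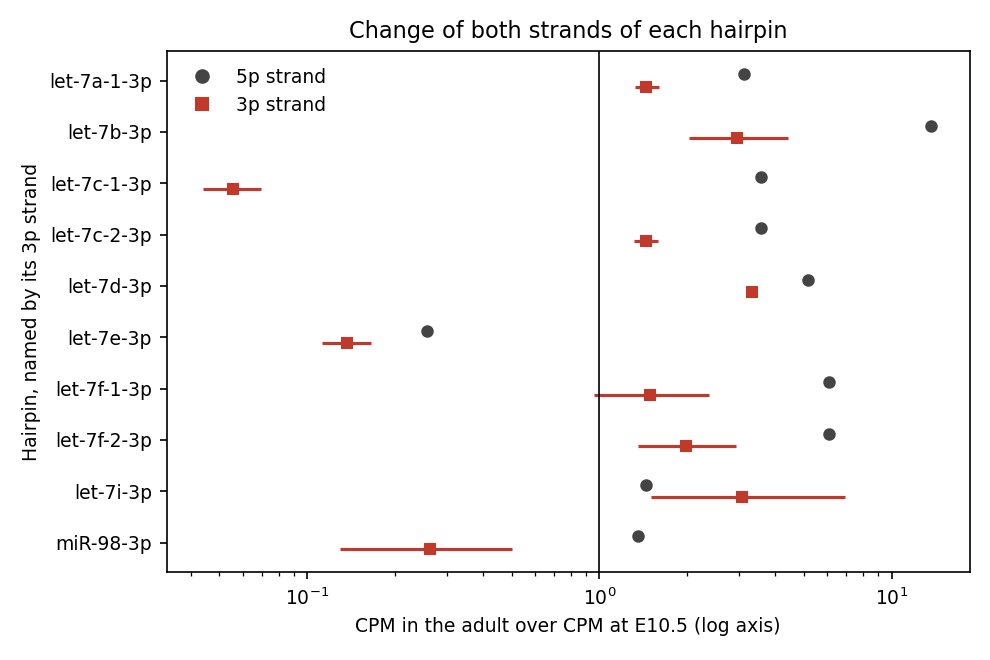
CPM in the adult over CPM at E10.5 (log axis) for the 5p strand (circles) and the 3p strand (squares) of 10 hairpins, with exact 95% intervals from counting. let-7c-1-3p lies at 0.0556 while its guide lies at 3.58, let-7e lies below 1 with both strands, and miR-98-3p lies below 1 in CPM but not under median-ratio scaling, which also lifts let-7e-5p above 1.

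The terminal loops are shown because LIN28 is known to bind GGAG there, and its cold shock domain GAU. Below is the stretch between both strands for the let-7 members with 1 hairpin (RefSeq, GRCm38.p6), with GGAG, and GAU that does not overlap it, in capitals.
let-7b: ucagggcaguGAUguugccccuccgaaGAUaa
let-7d: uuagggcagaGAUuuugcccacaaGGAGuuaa
let-7e: gaggaagacacccgaGGAGauca
let-7g: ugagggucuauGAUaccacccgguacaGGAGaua
let-7i: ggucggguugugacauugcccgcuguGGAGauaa
GGAG was found in 9 of the 11 let-7 hairpins (81.8%) and in 8.23% of 644 mouse hairpins with both strands listed. GAU outside GGAG was found in 4 of 11 (36.4%), against 14.9% of the 644. The let-7 loops are also longer, with a median of 29 bases against 16. Both let-7b and let-7c-2 lack GGAG, and GAU lies in let-7b, d, f-1 and g. The search was made on the strand of the hairpin, and a match is a description of letters. The LIN28 genes themselves are not analysed here, since the long RNA table names loci by identifiers of which 0 of 35299 were paired with a symbol.

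Other rows share the name or seed. let-7k (218 counts in the adult, 15 at E10.5) and miR-1961 (0 to 4 counts) carry GAGGUAG. The 0 of miR-1961 at E10.5 allows up to 3 counts, or 0.286 CPM, and its exact Poisson interval reaches 0.352 CPM. let-7j has another seed, GAGGUAU, and over its first 22 bases differs from let-7i-5p by G8U alone, with 2 more bases at its end. It had 983, 12143, 17034, 17987 and 13086 counts. Against let-7i-5p this was 0.386%, 1.13%, 1.52%, 1.77% and 2.87%, higher at each stage. With sequences this close, reads of let-7i-5p and let-7j may not be told apart, so the row is uncertain.

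Of the miRNAs that share clusters with members, miR-99b-5p, 1 of the neighbours of let-7e, had 39146, 25879, 20807, 14876 and 4719 CPM. In CPM it was lower at each step, with a log2 difference between E10.5 and the adult of -3.05. Under median-ratio scaling that difference was -0.67, where that of let-7e-5p was 0.42, and miR-99b-5p was higher at E14.5 than at E10.5 (0.11). The other neighbour, miR-125a-5p, went from 10021 CPM at E10.5 to 10817 in the adult. Within the libraries let-7e-5p went from 0.278-fold of miR-99b-5p at E10.5 to 0.591-fold in the adult, and from 1.08-fold to 0.258-fold of miR-125a-5p, so it kept its ratio to neither. miR-99a-5p, a neighbour of let-7c-1, had 21047 and 23598 CPM at these stages, while let-7c-1-3p was lower in the adult in both scalings. miR-100-5p (7107 and 7702 CPM) and miR-125b-5p (4302 and 7641 CPM) neighbour let-7a-2. miR-125b-5p is also listed within 100 kb of let-7c-1, so its value is not that of 1 cluster. Under median-ratio scaling the log2 differences were 2.49 for miR-125a-5p, 2.55 for miR-99a-5p, 2.50 for miR-100-5p and 3.21 for miR-125b-5p. In CPM miR-125a-5p, miR-99a-5p and miR-100-5p were nearly level (0.11 to 0.17), while miR-125b-5p was higher in the adult (0.83).

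Outside these groups, the miRNAs whose log2(CPM + 1) over the 5 stages was most like the family sum were miR-3970 (Pearson's r 0.994), miR-181a-5p (0.982), miR-132-3p (0.974), miR-222-3p (0.966) and miR-30a-5p (0.960). Correlations over 5 libraries that share depth and make-up are descriptions. The size of change differed: miR-30a-5p went from 13319 to 16089 CPM and miR-3970 from 1.43 to 7.95 CPM between E10.5 and the adult, while the family sum was 3.08-fold higher. Among the members, let-7d-5p was most like the sum (0.996) and let-7e-5p least (-0.36).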

How the data were processed

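Values of the deposited miRNA table are whole numbers with differing column sums and were read as counts, though the table is titled FPKM. Its columns were matched to stages by name and to the small RNA libraries by the table that their labels cite. Per the labels' protocols, gel-selected RNA of 18 to 30 nucleotides received adapters with molecular identifiers; the sources used here do not say whether reads or identifiers were counted. The submitters' processing notes name HISAT, HISAT2, Bowtie, Bowtie2, RSEM and mm9, without roles. The deposited long RNA values are FPKM per the file headers and were not used. The design allowed for counts or a scaled unit, and the counts were divided by the library total. Differences were taken as log2(CPM + 1), where either stage had at least 10 counts, with a 2-fold limit. Ratios carry exact Clopper-Pearson, shares Wilson and levels Poisson 95% intervals, for counting error only. A count model needs replicates and was not run. The calculation of differences was checked on simulated counts under median-ratio scaling, not in CPM. That check bears on the arithmetic and not on the spread between animals. The loop of miR-98 is not reported here. The text names all members, their 3p strands, rows of the same seed, 5 cluster partners and the 5 miRNAs most correlated with the family sum among those with at least 100 counts in some library. let-7j was added for its name, and the ratios between single strands were chosen after their values were seen. Members and lists were chosen with earlier results of these data known. Tools were Python 3.11.15, NumPy 2.4.6, pandas 2.3.3, SciPy 1.17.1 and matplotlib 3.10.9.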

Additional observations from a re-analysis of the deposited data

How the results depend on the processing

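No paired analysis was possible because each stage has 1 library. Pseudocounts of 0.1 and 5, no filter and a filter of 100 counts changed no count of members. The 4-fold limit left 1 member higher from E10.5 to E14.5, 0 lower from the newborn to the adult, and 3 higher and 0 lower from E10.5 to the adult. Of 45 member differences, the sign turned in 9 under median-ratio scaling, 4 without the 10 most abundant miRNAs, 2 in counts as deposited and 1 without miR-1a-3p. Under median-ratio scaling let-7g-5p turned to 1.12, let-7i-5p to 0.018 and miR-98-5p to 0.24 from the newborn to the adult, and let-7e-5p to 0.42 from E10.5 to the adult; the others were let-7e-5p, let-7i-5p and miR-98-5p from E14.5 to E17.5, and let-7i-5p and miR-98-5p from E17.5 to the newborn. The same scaling gave 6 members higher and 0 lower from the newborn to the adult, 0 lower from E10.5 to the adult, and 8 higher at every step. Leaving out the 10 most abundant miRNAs, or miR-1a-3p alone, left 1 member lower from the newborn to the adult. For the steps in order and then the whole span, the log2 difference of the family sum was 1.47, 0.08, 0.15, -0.08 and 1.62 in CPM. It was 1.61, 0.24, 0.13, -0.053 and 1.93 in counts as deposited, 2.18, 0.33, 0.37, 1.13 and 4.01 under median-ratio scaling, 1.87, 0.22, 0.30, 0.13 and 2.52 without the 10 most abundant miRNAs, 0.11, 0.19, 0.16 and 1.93 without miR-1a-3p (from the second step on), and 1.77, 0.11, 0.21, -0.11 and 1.98 without the members in the total. The sign from the newborn to the adult thus rests on the scaling, and the cause was not tested. With let-7j, let-7k and miR-1961 the family held 26.6%, 28.2%, 31.2% and 29.6% of counts from E14.5 on. With let-7a, c and f divided by 2, added after seeing the data, it held 7.17%, 21.4%, 22.5%, 24.4% and 21.4%. The 5p to 3p ratio of the family was 118, 126, 112, 163 and 163 with both identical rows counted (also added). It was 129, 114, 166 and 164 from E14.5 on with the most abundant 3p strand per member. At these stages that choice also counts the identical sequence for both let-7a and let-7c. A floor for 3p strands was never needed, as no member's 3p sum was 0.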
